A study of Homo sapiens with 12 samples.

Results

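The AP-1 and immediate-early transcription factors examined here were 10 genes, namely FOS, FOSB, FOSL1, FOSL2, JUN, JUNB, JUND, ATF3, BATF3 and EGR1, chosen by name from the 58302 genes of the deposited expression table. RNA-sequencing of 3 established human prostate cell lines was analysed, with 4 libraries of each line. BPH-1 is a benign prostate epithelial line immortalised with the SV40 large T antigen, whereas DU145 and PC3 are PCa lines derived from metastases. All libraries carried the label WT genotype, and all lines were grown in Dulbecco's modified Eagle's medium with fetal bovine serum, penicillin and streptomycin, without any further treatment. Each group is a single line, so a difference between groups is a difference between these lines. The labels do not say whether the 4 libraries of a line came from separate cultures, and the p-values measure the spread between these libraries, which may be technical.

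The FOS proteins (FOS, FOSB, FOSL1 and FOSL2) and the JUN proteins (JUN, JUNB and JUND) carry a basic leucine zipper, and they bind DNA in pairs as the AP-1 factor. ATF3 and BATF3 belong to the same leucine zipper superfamily and pair with JUN proteins, whereas EGR1 binds GC-rich sites with 3 zinc fingers. Growth factors and stress induce many of these genes within minutes through MAP kinases and the serum response factor SRF. In cells growing steadily in serum, the transcripts of FOS and EGR1 are usually short-lived, while FOSL1 and JUN are often held at a higher level by sustained ERK signalling.

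The values are FPKM, the reads counted on a gene divided by its length and by the total of the library. Depth was 12950670 to 16309568 reads over the 12 libraries. All 10 genes passed the filter on low values in each comparison. In those with PC3, EGR1 passed through the libraries of the other line, as its PC3 libraries held 6, 6, 4 and 43 reads. The keratin genes KRT8, KRT18 and KRT19 were expressed in all 3 lines, while KLK3 (PSA) was listed at 0 in every library. Among the 7 epithelial markers, EPCAM and CDH1 were higher in BPH-1 (mean FPKM 60.8 and 28.4) than in DU145 (0.376 and 0.180) and PC3 (9.10 and 0.786), whereas KRT7 was higher in DU145 (218) and PC3 (60.4) than in BPH-1 (1.09). The summed FPKM of the list was 273 to 377 in BPH-1, 245 to 419 in DU145 and 286 to 414 in PC3. Among the 5 leukocyte markers, CD3E was at 0 throughout, and the sum of the list was 13.6 to 18.3 in BPH-1, 5.06 to 15 in DU145 and 6.92 to 13.5 in PC3. In PC3 nearly all of it was CD68 (mean FPKM 10.9), with LYZ at 0.0711 and PTPRC and MS4A1 at 0. CD68 was lower in BPH-1 (4.71) and DU145 (6.17), while LYZ was highest in BPH-1 (8.88).

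Certain libraries stood apart within their line. In DU145, the leukocyte genes PTPRC and LYZ had FPKM of 1.35 and 7.76 in replicate 1 and 1.25 and 8.63 in replicate 2. Both were at 0 in replicates 3 and 4, where the stromal gene DCN (0.373 and 0.214) was detected instead. COL1A2 followed DCN (0.133 and 0.135), whereas COL1A1 (0.354 to 0.524) and PDGFRB (0.273 to 0.628) were found in all 4 DU145 libraries. Over all genes, 13 were on (FPKM over 1) in replicates 1 and 2 and off (under 0.02) in 3 and 4, and 3 the reverse. Other pairings within the 3 lines gave 4 to 11 and 3 to 9 genes. Every BPH-1 library also held both leukocyte genes, PTPRC at 1.15 to 1.54 and LYZ at 7.61 to 10.1. Over all genes, the reads of DU145 replicates 1 and 3 were closest to each other (chi-square per gene 37.0), as were those of 2 and 4 (23.7). The other DU145 pairs had 104 to 215. All factors but FOS and EGR1 were higher in both replicates 1 and 3 than in 2 and 4, an order not counted over all genes. Pairs of DU145 libraries were fitted as 1 and 2 or 3 and 4, not by this grouping. In PC3, replicate 4 had the highest value of the line for all 10 factors, although it was the highest of the line for 32.8% of all genes tested and the lowest for 37.3%. The summed FPKM of 6 heat-shock genes in this library was 890, compared with 503 to 576 in the other PC3 libraries. Member calls that these libraries change are given with and without them, as are some of the counts over the gene lists. Whether the state of a culture, its handling or its sequencing moved these values was not tested.

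The promoters of EGR1, JUNB, JUND and FOSL2 are shown first, because between them they hold a match to each of the 5 motifs searched. RefSeq promoters (GRCh38.p14, 250 bases before to 50 bases after the start) were found for 8 of the 10 genes, all but FOSL1 and BATF3. Motifs were searched on both strands, and capitals mark the matches. EGR1, on the plus strand at chr5:138465229-138465478, is printed up to the base before its start, with a match to its own GC-rich site GCGNGGGCG and a pair of CArG boxes, the element bound by SRF.
EGR1: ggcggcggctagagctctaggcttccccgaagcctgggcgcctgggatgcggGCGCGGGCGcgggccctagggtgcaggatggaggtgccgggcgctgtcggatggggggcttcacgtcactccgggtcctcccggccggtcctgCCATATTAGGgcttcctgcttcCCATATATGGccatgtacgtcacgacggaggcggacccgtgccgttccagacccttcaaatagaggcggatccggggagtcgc
JUNB, on the plus strand at chr19:12791236-12791485, had a TATA box (TATAAA) at bases -31 to -26 and none of the other motifs.
JUNB: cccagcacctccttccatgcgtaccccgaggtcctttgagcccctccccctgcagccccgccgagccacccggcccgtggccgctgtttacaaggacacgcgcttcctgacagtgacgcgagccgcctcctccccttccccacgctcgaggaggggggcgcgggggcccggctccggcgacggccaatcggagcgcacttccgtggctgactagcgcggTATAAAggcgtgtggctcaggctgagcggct
JUND, on the minus strand of chromosome 19, held the cAMP response element TGACGTCA, shown within chr19:18281803-18281832.
JUND: gccgcccccaTGACGTCAacccacaaggca
FOSL2 was the one member whose window held the AP-1 site TGANTCA, at bases 5 to 11 of the transcript, shown within chr2:28392848-28392869 on the plus strand.
FOSL2: tcgtgccattgtagTGACTCAt
The CArG boxes of EGR1 lay at bases -105 to -96 and -83 to -74, and its GC-rich site at bases -198 to -190. Among all 35116 promoters of the table, a CArG box was found in 1.29%, GCGNGGGCG in 9.43%, TGANTCA in 7.71%, TGACGTCA in 1.85% and TATAAA in 11.5%. The letters TATAAA were found in 4 members (FOS, FOSB, JUNB and ATF3, the last at 1 of its 2 entries). They lay at bases -33 to -28 in FOS and -30 to -25 in FOSB, but at -230 to -225 in ATF3, far from the start. No match of one motif overlapped a match of another in these members. A match describes the letters of these windows and does not show that a factor binds there.

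**Figure D1:**
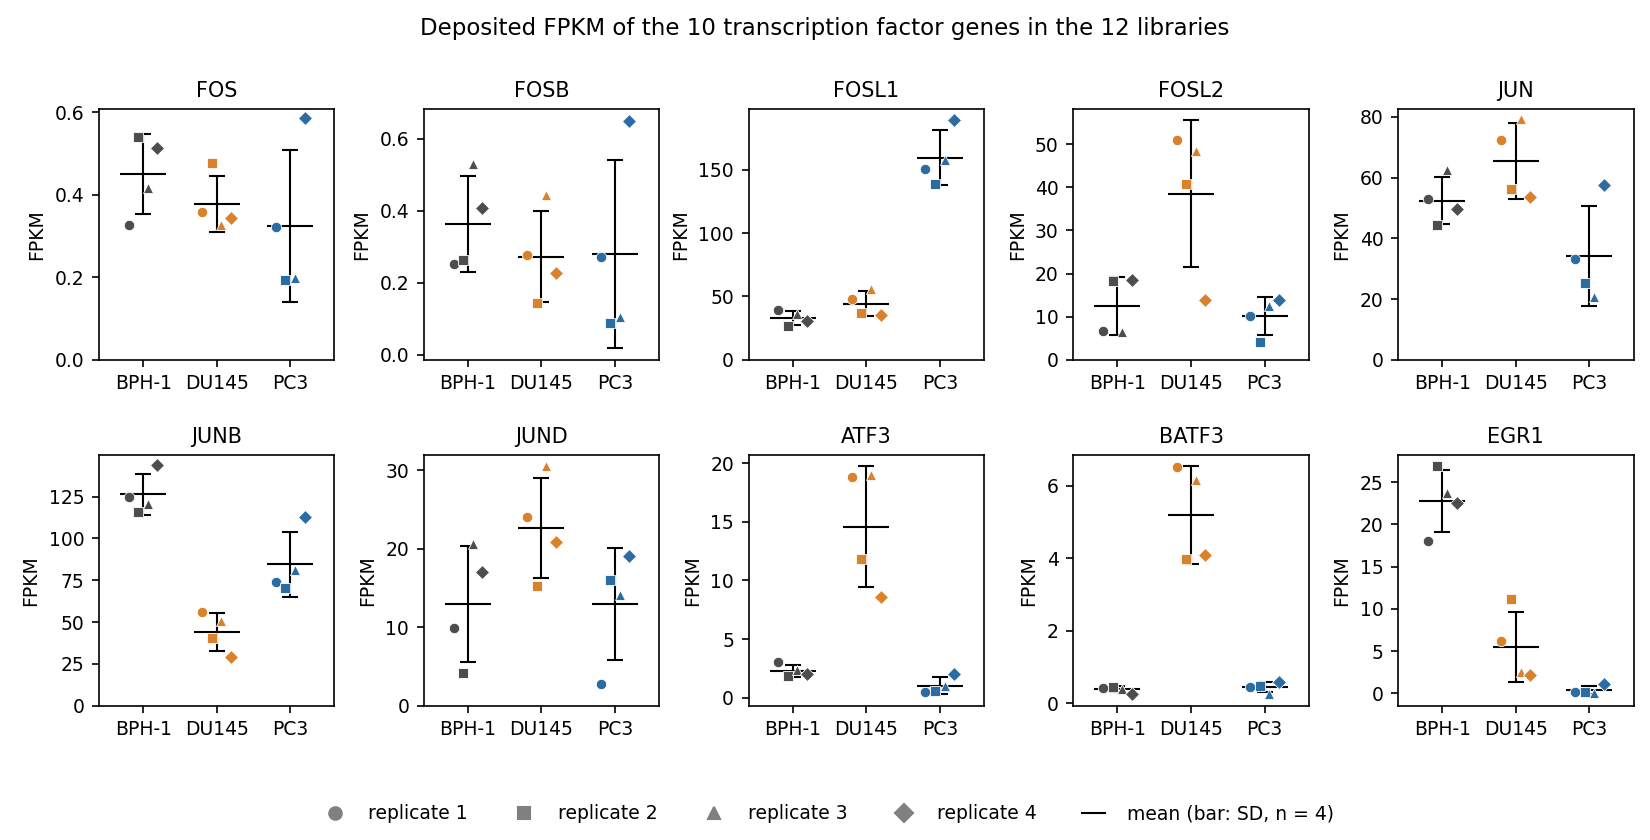
FPKM of the 10 transcription factor genes (1 panel per gene, linear axis) in the 4 libraries each of BPH-1, DU145 and PC3; marker shapes give the replicate, horizontal bars the mean and vertical bars the SD (n = 4). FOSL1 was highest in all PC3 libraries (139 to 190), EGR1 and JUNB in all BPH-1 libraries, ATF3 and BATF3 in all DU145 libraries, and replicate 4 was the top PC3 library in every panel.

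The level of each gene per length differed widely within a line. In BPH-1, JUNB led (126 ± 12.5, SD, n = 4), ahead of JUN (52.5 ± 7.68) and FOSL1 (33.1 ± 5.76), and the ranges of FOSL1 and EGR1, those of JUND and FOSL2, and those of FOS, BATF3 and FOSB overlapped. In DU145, JUN led (65.4 ± 12.5), although the ranges of JUN, FOSL1, JUNB and FOSL2 overlapped each with the next. In PC3, FOSL1 led (159 ± 21.6), ahead of JUNB (84.6 ± 19.3) and JUN (34.2 ± 16.5), without overlap between these 3 ranges. FOS and FOSB were low in all lines, at 0.650 or below in every library. These levels depend on the gene length used by the authors, which added up overlapping exons, so that genes with many transcripts appear lower. With merged exons, the mean FPKM of FOSL1 was 90.3 in BPH-1, 120 in DU145 and 435 in PC3, and FOSL1 took the first place in DU145 and the second in BPH-1.

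Comparisons between lines were made with limma on log2(FPKM + 1), and a gene was called at a Benjamini-Hochberg adjusted p under 0.05 over all genes tested. On this scale the change of weakly expressed genes is understated. A change counted as beyond 2-fold is a difference over 1 on this log2 scale. Folds given for a gene are ratios of mean FPKM, so the 2 measures can disagree. In bulk RNA, fewer cells expressing a gene and less transcript per cell cannot be told apart. The comparisons of PC3 and of DU145 with BPH-1 share the BPH-1 libraries.

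In PC3 compared with BPH-1, FOSL1 was 4.82-fold higher and EGR1 was 63.3-fold lower, while JUNB, JUN and ATF3 were lower by smaller amounts. Of the 10 factors, 1 was called higher and 4 were called lower, beside 67.6% of the 16408 genes tested (27.1% higher and 40.4% lower). A call with a change beyond 2-fold was made for FOSL1 (higher, beside 9.42% of all genes) and EGR1 (lower, beside 17.6%), 2 factors in all beside 27% of genes. ATF3 was 2.27-fold lower by mean FPKM, but its log2 difference of -0.76 kept it out of this count. No overlap between the lines was seen for 3 factors (FOSL1, JUNB and EGR1), compared with 64.4% of all genes. The median log2 difference of the 10 factors was -0.18, beside -0.13 for all genes tested. Upper-quartile scaling moved the median of all genes to 0.10 and the share of higher genes among those called from 40.2% to 55.2%; the calls of JUNB, JUN and ATF3 were then lost, with adjusted p of 0.452, 0.428 and 0.109 by limma.

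In DU145 compared with BPH-1, ATF3, BATF3 and FOSL2 were higher, whereas JUNB and EGR1 were lower. The 3 higher and 2 lower calls among 10 factors stand beside 62.7% of 17016 genes called (30.3% higher and 32.4% lower). All 5 changes were beyond 2-fold, compared with 28.8% of all genes (11.5% higher and 17.3% lower), and the libraries did not overlap for 4 of them (59.5% of all genes), FOSL2 being the exception. The median log2 difference of the 10 factors was 0.35, beside -0.03 for all genes.

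PC3 and DU145 differed from each other in 7 of the 10 factors. FOSL1 and JUNB were higher in PC3, while FOSL2, JUN, ATF3, BATF3 and EGR1 were lower, beside 48.3% of 16420 genes called (20% higher and 28.3% lower). A change beyond 2-fold was found for 6 factors (19.3% of all genes), 1 of them higher (8.22%) and 5 lower (11.1%), and 5 had no overlap (46.5% of all genes). JUN was among the 6 by its log2 difference of -1.003, although it was 1.91-fold lower by mean FPKM. FOS, FOSB and JUND were called in none of the 3 comparisons.

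**Figure D2:**
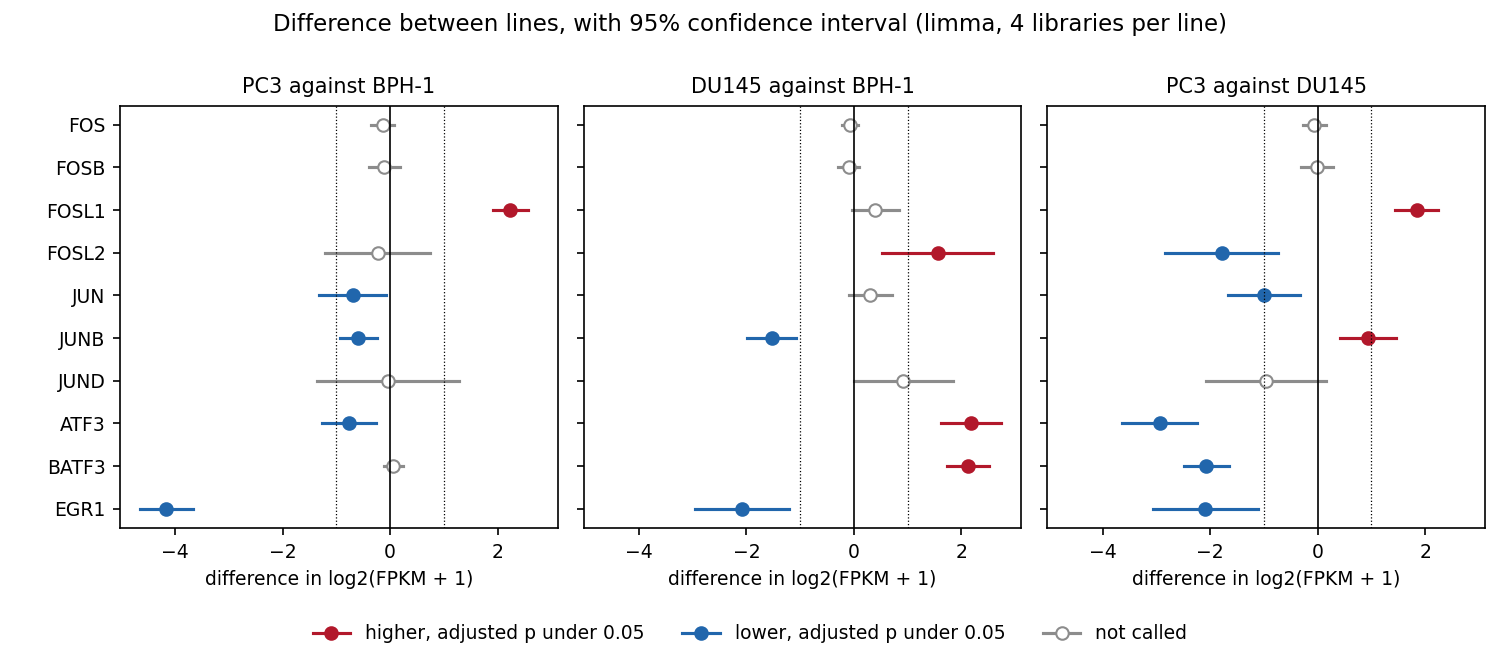
Difference in log2(FPKM + 1) of each factor between 2 lines (limma, 4 libraries per line) with its 95% confidence interval; filled points passed an adjusted p of 0.05, open points did not, and dotted lines mark a 2-fold change. FOSL1 lies to the right in both PC3 panels (2.24 and 1.84), EGR1 to the left in all 3 panels (-4.17, -2.08 and -2.09), and the intervals of FOSL2 and JUND are the widest.

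Among the FOS family, FOSL1 (FRA-1; ENSG00000175592, chr11:65892049-65900573, minus strand), a factor that sustained ERK signalling stabilises, set PC3 apart. Its FPKM was 39.3, 26.4, 36.2 and 30.4 in the BPH-1 libraries, 48.2, 37.0, 56.1 and 35.3 in DU145, and 151, 139, 158 and 190 in PC3. The lowest PC3 library was thus more than double the highest of any other line, while BPH-1 and DU145 overlapped. FOSL1 was higher in PC3 than in BPH-1 by 2.24 (SE 0.15, adjusted p = 1.58e-06, limma) on the log2 scale and than in DU145 by 1.84 (SE 0.18, adjusted p = 3.67e-05, limma), in 4 of 4 libraries. Without PC3 replicate 4 the PC3 mean was 149, and the change against BPH-1 was 4.51-fold. DU145 did not differ detectably from BPH-1, with a log2 difference of 0.40 (95% interval -0.04 to 0.84, limma adjusted p = 0.104).

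FOSL2 (FRA-2; ENSG00000075426, chr2:28392448-28417312, plus strand), the other FOS relative without a strong transactivation domain, was higher in DU145. The FPKM was 6.75, 18.3, 6.40 and 18.4 in BPH-1, 51.1, 40.7, 48.5 and 14 in DU145, and 10.2, 4.01, 12.4 and 14 in PC3. BPH-1 fell into 2 low and 2 high libraries, and DU145 replicate 4 lay within the range of BPH-1. The log2 difference of DU145 was 1.56 against BPH-1 (SE 0.47, limma adjusted p = 0.0148), and that of PC3 against DU145 was -1.79 (SE 0.46, limma adjusted p = 0.0107). With DU145 replicates 3 and 4 alone, both calls were lost (limma adjusted p = 0.133 and 0.116).

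FOS (ENSG00000170345, chr14:75278774-75282230, plus strand) and FOSB (ENSG00000125740, chr19:45467995-45475179, plus strand), the classical rapidly induced members, had a low FPKM in all lines. Each library held 24 to 75 reads of FOS and 20 to 139 reads of FOSB. FOS ranged from 0.328 to 0.540 in BPH-1, from 0.328 to 0.478 in DU145 and from 0.192 to 0.585 in PC3, and FOSB from 0.251 to 0.531, from 0.145 to 0.444 and from 0.0884 to 0.650. The lines overlapped for both genes. Neither was called, and the 95% intervals for PC3 against BPH-1 were -0.35 to 0.08 for FOS and -0.40 to 0.19 for FOSB on the log2(FPKM + 1) scale. In PC3 replicate 4 FOS was at 0.585 and FOSB at 0.650, compared with 0.192 to 0.322 and 0.0884 to 0.271 in the other PC3 libraries. When it was left out, FOS and FOSB were both called lower in PC3 than in BPH-1, with log2 differences of -0.23 and -0.24 (limma adjusted p = 0.0193 and 0.04255), which corresponds to 1.89-fold and 2.34-fold on the FPKM scale. FOS was also called lower in PC3 with all libraries kept when the trend on GC content was divided out (-0.22, limma adjusted p = 0.02952).

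The composition of the family followed FOSL1 and FOSL2. FOSL1 made up 92.5% to 97.0% of the summed FPKM of the 4 FOS genes in the PC3 libraries, 58.0% to 84.3% in BPH-1 and 47.2% to 70.9% in DU145. With merged exons these shares were 94.8% to 97.9%, 67.2% to 88.6% and 57.4% to 78.3%. FOS itself stayed at 1.19% or below of the family with the deposited values.

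**Figure D3:**
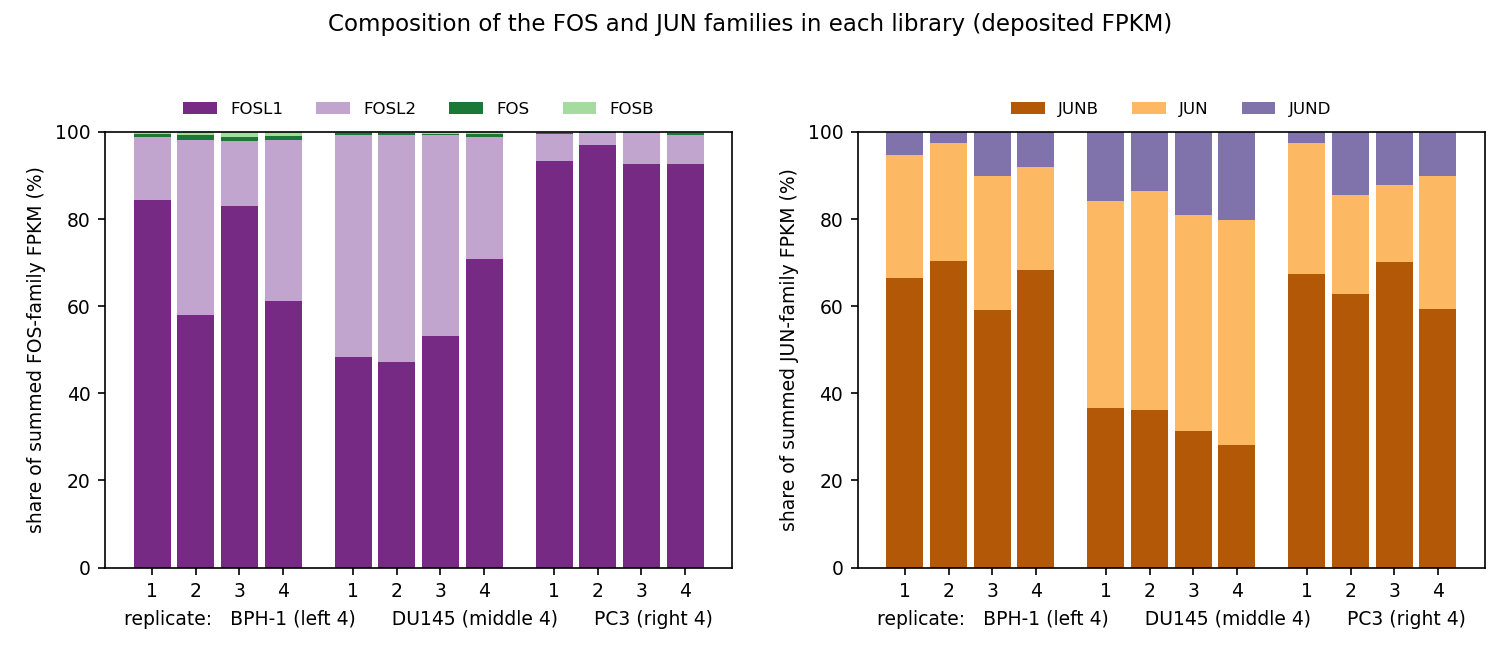
Share (%) of each gene in the summed FPKM of the 4 FOS-family genes (left) and the 3 JUN-family genes (right), stacked to 100 for each of the 12 libraries. FOSL1 fills 92.5% to 97.0% of the FOS family in PC3, and JUNB takes 28.2% to 36.6% of the JUN family in DU145 compared with at least 59.1% in the other lines.

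In the JUN family, JUNB (ENSG00000171223, chr19:12791496-12793315, plus strand), a single-exon gene whose product often opposes the proliferative effect of JUN, was highest in BPH-1. Its FPKM was 125, 116, 121 and 144 in BPH-1, 55.7, 40.7, 50.5 and 29.4 in DU145, and 74.1, 70.1, 81.4 and 113 in PC3. The 3 lines did not overlap. The log2 difference of JUNB from BPH-1 was -1.53 in DU145 (SE 0.20, limma adjusted p = 0.000126) and -0.59 in PC3 (SE 0.15, limma adjusted p = 0.00688), and PC3 exceeded DU145 by 0.94 (SE 0.23, limma adjusted p = 0.00767). JUNB shares 259 exon bases with HOOK2 on the other strand, and the use of strand in counting is not stated. HOOK2 had a mean FPKM of 2.27 to 3.13, and its part in the JUNB values was not tested.

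JUN (ENSG00000177606, chr1:58780788-58784327, minus strand), the partner that gives AP-1 most of its activity, had an FPKM of 53.1, 44.3, 62.6 and 49.8 in BPH-1, 72.4, 56.3, 79.4 and 53.7 in DU145, and 33.1, 25.3, 20.7 and 57.7 in PC3. Replicates 1 to 3 of PC3 lay below every other library, whereas PC3 replicate 4 lay among those of BPH-1 and DU145. The log2 difference of PC3 was -0.70 against BPH-1 (SE 0.27, limma adjusted p = 0.0460) and -1.003 against DU145 (SE 0.29, limma adjusted p = 0.0194). The call against BPH-1 remained in 1 of 8 fits that left out a library, namely the fit without PC3 replicate 4, and that against DU145 in 5 of 8; the highest adjusted p of the others was 0.122 and 0.0570. With DU145 replicates 1 and 2 alone, or 3 and 4 alone, PC3 against DU145 was not called (limma adjusted p = 0.0845 and 0.0956). DU145 and BPH-1 did not differ detectably (0.31, 95% interval -0.09 to 0.71).

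JUND (ENSG00000130522, chr19:18279760-18281622, minus strand), the member that is usually expressed without induction, varied widely between the libraries of BPH-1 and PC3. It ranged from 4.10 to 20.7 in BPH-1, from 15.3 to 30.6 in DU145 and from 2.78 to 19.1 in PC3. No comparison was called, and the 95% intervals were wide, from -1.36 to 1.28 for PC3 against BPH-1 and from -0.0035 to 1.85 for DU145 against BPH-1. JUND has the highest GC content of the 10 genes (69.7%). With each library's trend on GC content divided out, the spread in BPH-1 was still 58.1% of the mean, compared with 15.4% in DU145 and 52.4% in PC3.

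The JUN family of DU145 differed in composition, as the share of JUNB was 28.2% to 36.6% of the summed FPKM, beside 59.1% to 70.5% in BPH-1 and 59.5% to 70.1% in PC3. JUN accounted for 47.6% to 51.6% in DU145, 23.6% to 30.7% in BPH-1 and 17.8% to 30.4% in PC3.

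ATF3 and BATF3, which lie close together on chromosome 1, were both highest in DU145. ATF3 (ENSG00000162772, chr1:212565334-212620777, plus strand), a stress-responsive factor, had an FPKM of 3.01, 1.87, 2.37 and 1.99 in BPH-1, 18.8, 11.9, 18.9 and 8.61 in DU145, and 0.501, 0.556, 0.958 and 2.05 in PC3. Every DU145 library exceeded every other library, and PC3 replicate 4 lay within the range of BPH-1. ATF3 was 6.31-fold higher in DU145 than in BPH-1 (log2 difference 2.18, SE 0.25, limma adjusted p = 5.31e-05). In PC3 its log2 difference from BPH-1 was -0.76 (SE 0.22, limma adjusted p = 0.0127), which was 2.27-fold on the FPKM scale and 3.44-fold without PC3 replicate 4. PC3 was 14.3-fold lower than DU145 (limma adjusted p = 5.82e-05), and 21.7-fold without PC3 replicate 4.

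BATF3 (ENSG00000123685, chr1:212686418-212699985, minus strand), best known for its role in dendritic cells, had an FPKM of 0.437, 0.442, 0.411 and 0.273 in BPH-1, 6.53, 3.98, 6.16 and 4.10 in DU145, and 0.466, 0.492, 0.256 and 0.603 in PC3. It was 13.3-fold higher in DU145 than in BPH-1 (log2 difference 2.13, SE 0.17, limma adjusted p = 6.31e-06) and 11.4-fold lower in PC3 than in DU145 (limma adjusted p = 2.16e-05). These folds rest on 12 to 19 reads in the BPH-1 libraries and 10 to 22 in those of PC3. PC3 and BPH-1 overlapped (log2 difference 0.06, 95% interval -0.12 to 0.24). The leukocyte genes PTPRC and LYZ were at 0 in DU145 replicates 3 and 4, where BATF3 was at 6.16 and 4.10. With these libraries alone the log2 difference against BPH-1 was 2.12 (limma adjusted p = 0.0001128), and with replicates 1 and 2 alone 2.14 (limma adjusted p = 0.0001299).

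EGR1 (ENSG00000120738, chr5:138465490-138469315, plus strand) was called in all 3 comparisons, as were JUNB and ATF3, and its level was highest in BPH-1, lower in DU145 and lowest in PC3. Its FPKM was 18.0, 26.9, 23.6 and 22.5 in BPH-1, 6.23, 11.1, 2.48 and 2.16 in DU145, and 0.148, 0.139, 0.0919 and 1.06 in PC3, without overlap between lines. In the PC3 libraries these values rest on 6, 6, 4 and 43 reads. The log2 difference of EGR1 from BPH-1 was -4.17 in PC3 (SE 0.22, limma adjusted p = 3.76e-07) and -2.08 in DU145 (SE 0.39, limma adjusted p = 0.00114), and that of PC3 from DU145 was -2.09 (SE 0.43, limma adjusted p = 0.00322), in 4 of 4 libraries each. On the FPKM scale PC3 was 63.3-fold below BPH-1 and 15.3-fold below DU145, and 180-fold and 43.5-fold without PC3 replicate 4. The DU145 libraries with PTPRC and LYZ (replicates 1 and 2) were also those with the higher EGR1. With them alone the log2 difference of DU145 from BPH-1 was -1.33 (limma adjusted p = 0.003532), and with replicates 3 and 4 alone -2.83 (limma adjusted p = 6.95e-05).

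Other genes of the pathway were read from lists of leucine zipper partners, immediate-early genes, upstream kinases, feedback inhibitors and AP-1 targets. Of 21 other immediate-early genes, 19 were tested in DU145 against BPH-1, where 9 were called higher and 5 lower, and 20 in PC3 against BPH-1, where 3 were higher and 10 lower. Among all genes tested, 30.3% were higher and 32.4% lower in DU145, and 27.1% and 40.4% in PC3, and the lists that follow are read beside these shares. The median log2 difference of the list was 0.45 in DU145, where that of all genes was -0.03, and -0.28 in PC3, where that of all genes was -0.13. The largest rises in DU145 were CCN2, the connective tissue growth factor and a target of YAP and SRF (408 ± 69.9 compared with 17.7 ± 5.53, SD, n = 4), and GADD45B, a stress sensor (31.5 ± 6.89 compared with 2.01 ± 0.236). In contrast, BTG2, an antiproliferative gene, was lower in DU145 (3.06 ± 0.792) and in PC3 (0.616 ± 0.195) than in BPH-1 (12.1 ± 2.47), as were IER5 in DU145 (11.7 ± 3.14 compared with 22.3 ± 2.54) and the mRNA decay factor gene ZFP36 in PC3 (2.68 ± 0.958 compared with 12.8 ± 1.58). In PC3, IER3 (349 ± 61.7 compared with 117 ± 23.4) and EGR2 (0.437 ± 0.0509 compared with 0.107 ± 0.0721) showed the largest rises. Between PC3 and DU145, 2 of 19 genes were higher in PC3 and 11 lower, beside 20% and 28.3% of all genes. The summed FPKM of the 21 genes was 1298 to 1955 in DU145, 315 to 429 in BPH-1 and 456 to 630 in PC3 (456 to 502 without replicate 4). In DU145 most of the sum came from CCN1, CCN2, PPP1R15A and IER3, with mean FPKM of 661, 408, 270 and 187.

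Among 11 other leucine zipper partners, 9 were tested against BPH-1 in each line, with 4 higher and 2 lower in DU145 and 1 higher and 5 lower in PC3 (median log2 difference 0.31 and -0.15), where 62.7% and 67.6% of all genes were called. The small MAF proteins MAFK (86.4 ± 19.5 compared with 7.41 ± 4.74) and MAFG (42.0 ± 21.6 compared with 6.76 ± 1.14) rose most in DU145, where ATF2 (0.580 ± 0.438 compared with 2.74 ± 0.265) and MAF (0.00925 ± 0.00814 compared with 0.251 ± 0.121) fell most. In PC3, JDP2, a repressor of AP-1, was lower (0.0394 ± 0.0290 compared with 1.43 ± 0.642), as was ATF2 (0.682 ± 0.414), and ATF7 was the single gene called higher (6.36 ± 1.10 compared with 3.74 ± 0.151).

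The 15 upstream kinases and serum response factors were all tested, with 4 higher and 6 lower in DU145 and 3 higher and 7 lower in PC3 (median log2 difference -0.20 and -0.15). The 10 of 15 genes called in each line are close to the share over all genes (62.7% and 67.6%). SRF, the factor of the CArG box, was higher in DU145 (89.3 ± 18.7 compared with 26.4 ± 2.35, limma adjusted p = 2.62e-05), together with MAPK3 (ERK1, 9.77 ± 2.99 compared with 4.81 ± 1.08). The largest falls in DU145 were RPS6KA3 (2.29 ± 1.77 compared with 18.4 ± 3.79) and ELK4, a partner of SRF (1.76 ± 1.60 compared with 8.73 ± 0.942). In PC3, RPS6KA1 (18.0 ± 2.14 compared with 7.35 ± 0.964) and MAP2K7 (5.56 ± 1.498 compared with 2.72 ± 0.761) rose, and ELK3 (3.28 ± 1.15 compared with 15.4 ± 7.71) and ELK4 (2.104 ± 1.03) fell.

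Feedback inhibitors of MAP kinase signalling showed 7 higher and 2 lower genes of 11 in PC3, and 5 higher and 4 lower in DU145 (median log2 difference 0.84 and 0.31). Among all genes, 27.1% were higher and 40.4% lower in PC3, and 30.3% and 32.4% in DU145, with medians of -0.13 and -0.03. DUSP4, an ERK and JNK phosphatase, was 24.9-fold higher in PC3 than in BPH-1 (118 ± 25.7 compared with 4.75 ± 0.480, limma adjusted p = 5.32e-08), followed by SPRY2 (25.4 ± 4.04 compared with 2.04 ± 0.357). DUSP1, itself an immediate-early phosphatase, led in DU145 (141 ± 30.0 compared with 14.4 ± 2.64), again followed by SPRY2 (14.7 ± 1.07). NAB1, a corepressor of EGR proteins, and DUSP2 fell most in both lines, NAB1 to 2.22 ± 0.867 in PC3 and 1.45 ± 0.975 in DU145 from 6.10 ± 0.992, and DUSP2 to 0.989 ± 0.320 and 0.142 ± 0.0989 from 2.17 ± 0.696. Between PC3 and DU145, 6 of the 11 were higher in PC3 and 2 lower, beside 20% and 28.3% of all genes.

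Of 14 textbook AP-1 target genes, 13 were tested in PC3, with 7 higher and 6 lower, and all 14 in DU145, with 2 higher and 5 lower (median log2 difference 0.48 and -0.16), beside 67.6% and 62.7% of all genes called. The chemokine gene CXCL8 (130 ± 31.8 compared with 39.2 ± 16.8) and HMGA1 (344 ± 47.4 compared with 120 ± 24.8) rose most in PC3, and HBEGF (39.2 ± 6.15 compared with 9.53 ± 1.26) and CCND1 (115 ± 12.1 compared with 69.0 ± 8.79) in DU145. The gelatinase gene MMP9 fell from 9.97 ± 6.66 in BPH-1 to 0.0651 ± 0.0393 in PC3 and 0.0934 ± 0.119 in DU145. Members of the list were thus called in both directions in each PCa line. Of 6 heat-shock genes, 2 were higher and 1 lower in PC3, and 3 were lower in DU145, beside the same shares over all genes. DNAJB1 (34.4 ± 10.3 compared with 18.6 ± 2.91) and BAG3 (73.3 ± 9.95 compared with 56.3 ± 5.35) were the genes higher in PC3, where HSPH1 was lower (5.09 ± 2.68 compared with 24.2 ± 3.83). In DU145, HSPA1A (mean FPKM 7.16 compared with 227), HSPH1 (0.613 compared with 24.2) and HSPA1B (3.47 compared with 55.1) were lower, and HSPA1A and HSPA1B are near-identical copies whose reads may be split.

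Without PC3 replicate 4, the counts against BPH-1 were 3 higher and 9 lower for the other immediate-early genes and 6 higher and 6 lower for the AP-1 targets, and they were the same as above for the other 4 lists. In this fit 67.1% of all genes were called, beside 67.6% with every library. With DU145 replicates 1 and 2 alone, the upstream list had 2 higher and 5 lower genes against BPH-1, and the other immediate-early genes had 7 and 4 with either pair of DU145 libraries. Fewer genes of any kind were called in these fits, 53.2% with replicates 1 and 2 and 54.9% with 3 and 4, beside 62.7% with every library. The median of the AP-1 targets in DU145 turned to 0.05 with replicates 3 and 4 alone. Between PC3 and DU145, 1 feedback inhibitor was lower in PC3 without PC3 replicate 4 or with either pair of DU145 libraries. Without PC3 replicate 4, 47.3% of all genes were called in this comparison, beside 48.3% with every library. The share was 40.9% with DU145 replicates 1 and 2 alone and 37.6% with 3 and 4 alone.

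**Figure D4:**
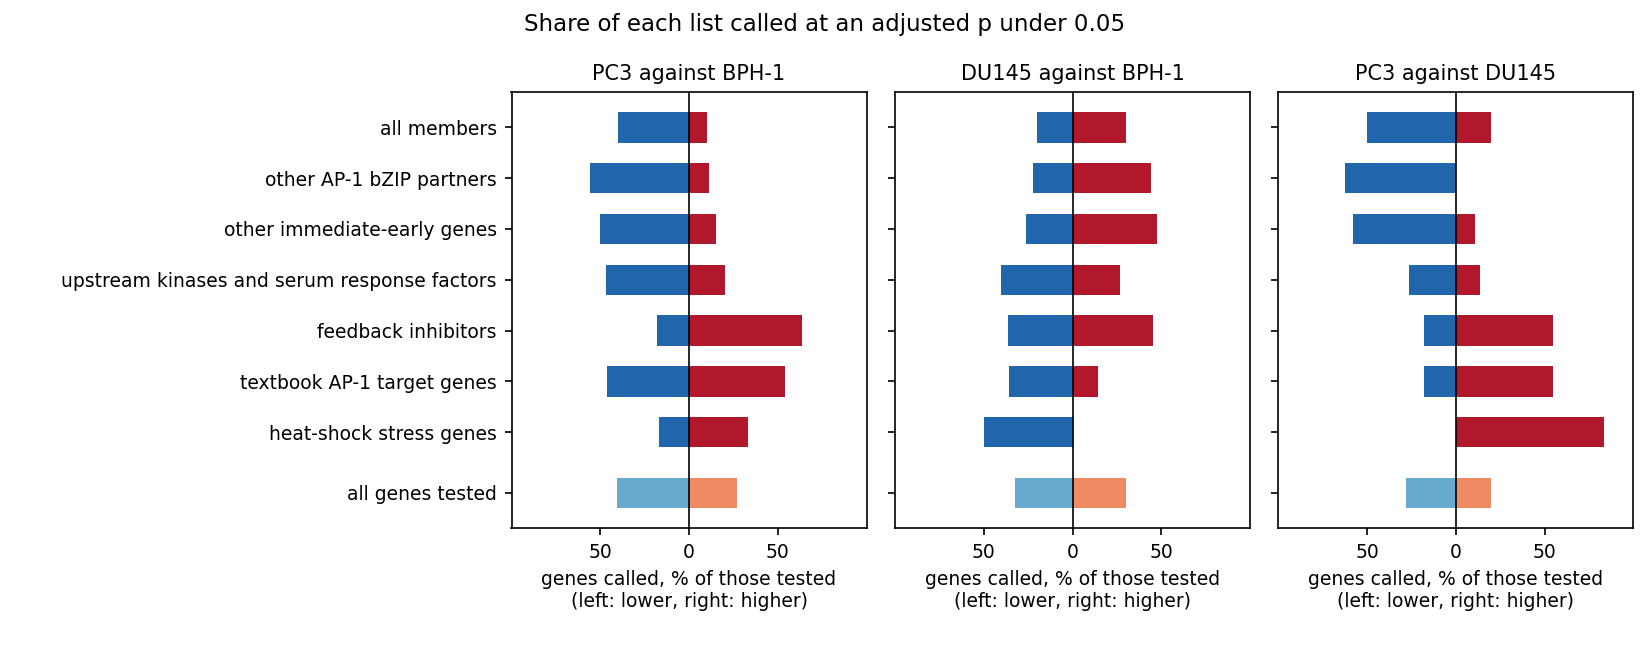
Percent of the tested genes of each list called higher (right, red) or lower (left, blue) at an adjusted p under 0.05 in the 3 comparisons, with all genes tested at the bottom in lighter colours. In PC3 against BPH-1 the feedback inhibitors stand at 7 higher and 2 lower of 11 and the other immediate-early genes at 3 higher and 10 lower of 20, beside 27.1% higher and 40.4% lower among all genes.

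Finally, the order of the libraries within a line was examined. PC3 replicate 4 had the highest value of the line for 10 of 10 factors, with a median ratio of 1.97 to the mean of the other PC3 libraries (1.27 for FOSL1 to 8.37 for EGR1), while the median ratio of 16968 tested genes was 0.947. The same library was the highest for 10 of the 21 other immediate-early genes and for 5 of 6 heat-shock genes, with HSPA1A at 509 compared with 237 to 274, and DUSP1 was at 30.4 compared with 8.67 to 12.7. Genes of high GC content were relatively higher in it, as the median ratio was 1.16 in the 4239 genes with a GC content of 56.46% to 75.2%, which include 5 of the factors, and 0.481 in the 4239 genes with 23.53% to 42.5%, which include none. After the trend on GC content was divided out, PC3 replicate 4 was still the highest of its line for 10 of 10 factors. In DU145, replicate 3 was the highest for 5 factors, beside 34.4% of all genes tested, and replicate 4 the lowest for 6, beside 18.2%. DU145 replicate 3 was also the highest of its line for 12 of the 21 other immediate-early genes and for 5 of 6 heat-shock genes. In BPH-1 no replicate was the highest for more than 3 factors, but replicate 2 was the highest for 11 of the 21 other immediate-early genes and 0 heat-shock genes. High counts in these lists were thus not particular to PC3 replicate 4. The share of FPKM from mitochondrial genes was 27.4% in PC3 replicate 4 and 34.3% to 35.0% in the other PC3 libraries. In DU145 it was 25.8% in replicate 3 and 30.7% to 39.7% in the other libraries. The part of these differences in the results was not tested.

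**Figure D5:**
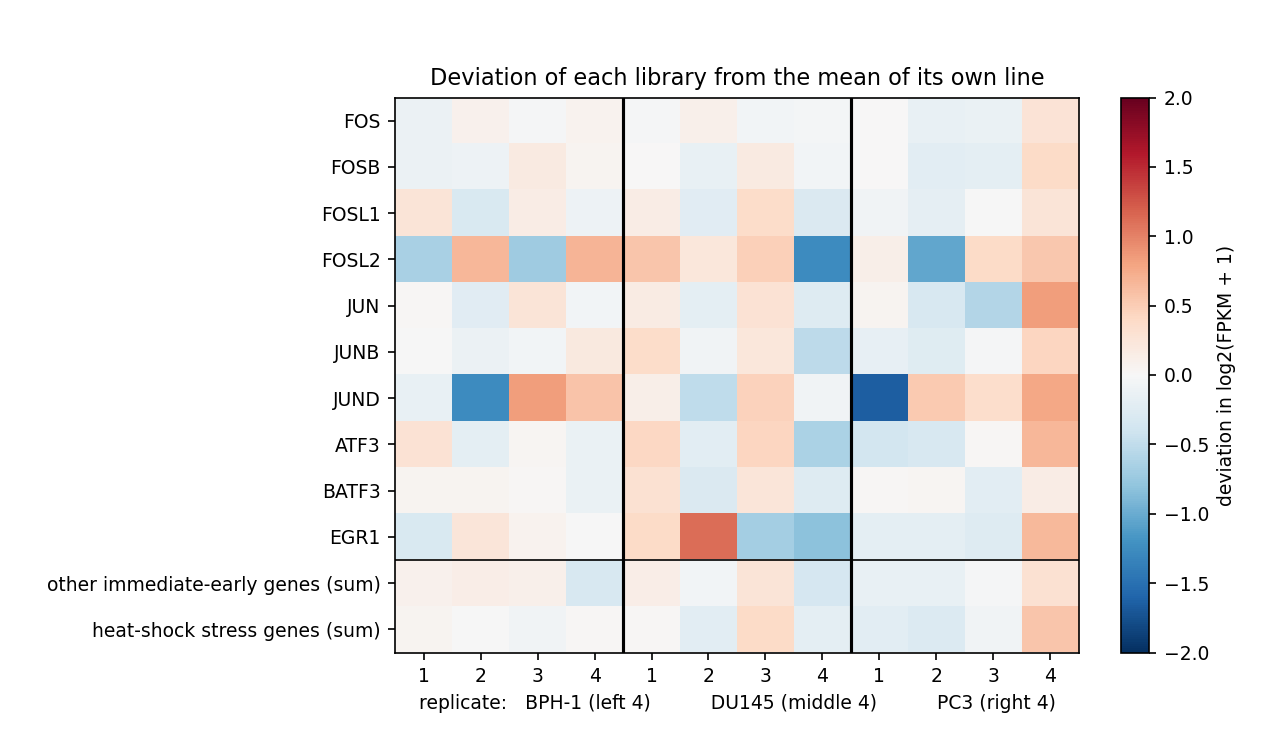
Deviation of each library from the mean of its own line in log2(FPKM + 1), for the 10 factors and for the summed FPKM of 21 other immediate-early and 6 heat-shock genes; red is above and blue below the line's mean. The column of PC3 replicate 4 is red in all rows, and the DU145 columns of EGR1 split into replicates 1 and 2 above the mean and 3 and 4 below it.

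Genes with a pattern like that of 4 members were sought by the smallest root mean square difference over the 12 libraries after centring log2(FPKM + 1), among 13982 protein-coding genes. FOSL1 was nearest to CHCHD1 (0.10), MAPKAPK3, a stress-activated kinase (0.12), and PRDX6, a peroxidase (0.16), where the deviation of FOSL1 itself from its mean was far larger. CHCHD1 had a mean FPKM of 8.70 in BPH-1, 11.6 in DU145 and 43.6 in PC3. JUN was nearest to POLR2A, the largest subunit of RNA polymerase II (0.18), ZNF646 (0.19) and DAPK3 (0.19), with 0.55 for JUN itself. EGR1 was nearest to a gene of chromosome Y (0.49), whose levels are not given, and to ANXA8L1 (0.54) and ANXA8 (0.58), near-identical copies whose reads may be split. FOS varied by 0.13 in all, so the distances of TFR2 (0.10), DUSP18 (0.10) and UBAP2L (0.10) carry little information. These likenesses are descriptions over 3 lines, since the libraries of a line share their source.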

How the data were processed

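RNA of 12 libraries (4 each of BPH-1, DU145 and PC3) was extracted with TRIzol and prepared with an NEBNext kit, and the submitters' processing notes name CASAVA 1.8, HISAT2 2.1.0 and edgeR with GRCh38. The counting program, the annotation release and the use of strand are not given in the sources used here. The values deposited by the authors have the form of FPKM, although the header names no unit. With the sum of distinct exons of GENCODE 29 as gene length, 96.0% to 96.9% of low values (up to 20 reads, tolerance 0.01 reads) came out as whole reads, which gave depth and reads; 263 genes without a length were left out. These reads were used for the filter and for voom. No columns were left unassigned, and no replicates agreed within sampling noise (chi-square per gene 17.3 to 215 in 18 pairs).

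Genes reaching the equivalent of 10 reads (scaled to median depth) in 4 libraries, with a total of 15 or more, were tested with limma 3.58.1 (R 4.3.3, trend) on log2(FPKM + 1), each fit holding the libraries of its 2 lines. Confidence intervals are at 95%. The fit was tested on simulated data. The 10 members are always named; of each other list the 2 largest rises and falls among called genes against BPH-1 are named, except for items not reported here. Members and lists were chosen with earlier results of these data known. Alternatives were no filter, a stricter filter, a replicate block, 1 fit over all lines, a pseudocount of 0.1, other scalings, voom, a GC correction and leaving out each library; merged exons, scaling without mitochondrial genes, the DU145 pairs of libraries and the list counts without single libraries were added after seeing the data. Python 3.11.15, numpy 2.4.6, pandas 2.3.3 and matplotlib 3.10.9 were used.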

Additional observations from a re-analysis of the deposited data

Results flagged for a closer look

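Among 36 groups of 4 libraries (10 factors and 2 summed lists in 3 lines), 2 held a library far from the other 3 by Dixon's criterion, and chance alone gives about 1 in 20 such groups. EGR1 in PC3 replicate 4 had an FPKM of 1.06, while the other PC3 libraries had 0.0919 to 0.148. The summed FPKM of the other immediate-early genes in BPH-1 replicate 4 was 315, while the other BPH-1 libraries had 417 to 429.

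The difference from BPH-1 was not the same in both PCa lines for 7 factors, as tested by limma between PC3 and DU145. The same comparison called 48.3% of the 16420 genes tested. On the log2 scale PC3 was above DU145 for FOSL1 (1.84) and JUNB (0.94), and below it for FOSL2 (-1.79), JUN (-1.003), ATF3 (-2.94), BATF3 (-2.07) and EGR1 (-2.09). JUN lost its call with either pair of DU145 libraries (limma adjusted p = 0.0845 and 0.0956), and FOSL2 with libraries 3 and 4 alone (limma adjusted p = 0.116).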

How the results depend on the processing

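The calls of FOSL1, BATF3 and EGR1 in the comparisons where they were made, and those of ATF3 and JUNB outside PC3 against BPH-1, held in every alternative in which the gene was tested; EGR1 failed the stricter filter in both comparisons with PC3. With upper-quartile scaling, 2 members were called in PC3 against BPH-1, 1 of them lower, and 5 were called higher in DU145 against BPH-1. With the GC trend divided out, 4 members changed beyond 2-fold in PC3 against BPH-1 and 4 were lower in DU145 against BPH-1. With the stricter filter, 1 member changed beyond 2-fold in PC3 against BPH-1. With DU145 libraries 3 and 4 alone, 3 members were lower in PC3 than in DU145, in a fit that called 37.6% of all genes. The causes were not tested. JUN in PC3 against BPH-1 lost its call in 4 of 12 alternatives, JUN in PC3 against DU145 in 3 of 14 (limma adjusted p up to 0.09562), and FOSL2 in 1 of 14 in each of its 2 called comparisons. When each library was left out in turn, the members called ranged from 4 to 7 in PC3 against BPH-1, 5 to 6 in DU145 against BPH-1 and 6 to 7 in PC3 against DU145. Without PC3 replicate 4, FOS and FOSB were called; without BPH-1 replicate 3, JUND was called in DU145 against BPH-1 (1.20, limma adjusted p = 0.0321).

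The replicate number did not pair the libraries, since the correlation of same-numbered deviations was -0.13 to 0.09 for PC3 and BPH-1, -0.09 to -0.06 for DU145 and BPH-1 and -0.66 to 0.52 for PC3 and DU145, and 3, 0 and 1 of 8 libraries correlated best with their own number. With the replicate block, JUN in PC3 against BPH-1 was at an adjusted p of 0.05157 and JUND in DU145 against BPH-1 at 0.0168 (limma); the count called over all genes moved to 10733, 10131 and 6747. Depth limits EGR1 in PC3, where 3 libraries held 4 to 6 reads. It also limits BATF3 in BPH-1 (12 to 19 reads) and PC3 (10 to 22 reads).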
